A study of Vitis vinifera with 9 samples.

Results

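Among the 16601 probe sets of the grape genome array, 4 probe sets for beta-1,3-glucanases are described here, namely 1615595_at, 1619916_s_at, 1618409_at and 1619828_at. They come from the study's table of stress-related genes and were chosen by their values on these same arrays, so that their own changes are given as a description and without a test. Detached leaves of V. vinifera 'Hongbaladuo', 30 days old and standing in water, were kept in the dark at 25 °C and then received UV-C light of 6 W per square metre on the lower surface for 10 min. The control leaves were taken at 0 h, and the UV-C leaves 6 h and 12 h after the treatment began. Each of the 3 groups held 3 replicates of 6 leaves, and each replicate was hybridized to 1 array. No leaves were left without UV-C for 6 h or 12 h, and the effect of UV-C cannot be told apart from that of time since detachment, of standing in water or of the time of day. The sources used here do not say whether the replicates came from separate vines, and the spread between arrays may in part be technical.

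Beta-1,3-glucanases are enzymes that cut the beta-1,3-glucan chains found in callose, the polymer plants lay down at plasmodesmata, in sieve plates and at wounds, and in the cell walls of many fungi. Several of them form the PR-2 family of pathogenesis-related proteins, which are made in leaves after infection or wounding and act against fungal walls together with chitinases. Others serve in the turnover of callose during growth and cell division.

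The members differ in how well they are identified. Probe set 1615595_at is annotated as the class I beta-1,3-glucanase LOC100232986 and was designed on a complete mRNA. Probe set 1619916_s_at is titled similar to beta-1,3-glucanase and is assigned to 2 genes, LOC100260160 and LOC100265368, so its signal cannot be divided between them. The remaining pair rests on sequence similarity to Arabidopsis proteins, which the annotation calls weak: 1618409_at (LOC100257325) resembles a putative beta-1,3-glucanase, and 1619828_at (LOC100260718) resembles BG2, a PR-2 protein of Arabidopsis. Values are RMA intensities on a linear scale, which can be compared between arrays for 1 probe set but not between probe sets. The array medians lay between 102 and 117.

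The class I enzyme was among the strongly induced transcripts of the irradiated leaves. On the control arrays 1615595_at had intensities of 103, 73.2 and 42.3. It reached 5221, 5616 and 3417 at 6 h, and 7981, 7158 and 8385 at 12 h. All control values lay near or below the array medians, and none of the 3 groups overlapped with another. Relative to the control, the probe set rose 68.0-fold at 6 h (log2 6.09 ± 0.30, standard error of the limma fit, n = 3 arrays per group) and 115-fold at 12 h (log2 6.84 ± 0.30). The 12 h intensity exceeded that at 6 h 1.68-fold (log2 0.75 ± 0.30), which is below the 2-fold threshold used for a call. Of the log2 change seen at 12 h, 89.0% was already present at 6 h. Among 16436 probe sets tested, its change ranked 49 from the highest at 6 h and 46 at 12 h.

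Probe set 1619916_s_at rose further than the class I enzyme at the later time. Its intensities were 91.4, 68.6 and 26.8 on the control arrays and 2499.7, 4041 and 2824 at 6 h, and they reached 14064, 15567 and 15597 at 12 h. Here too the groups did not overlap, and the arrays at 12 h lay within 1.11-fold of each other, whereas those of the control spanned 3.41-fold. The rise was 55.4-fold at 6 h (log2 5.79 ± 0.38) and 273-fold at 12 h (log2 8.09 ± 0.38). Intensity at 12 h was 4.93-fold that at 6 h (log2 2.30 ± 0.38), and 71.6% of the 12 h log2 change was present at 6 h. The rank from the highest was 67 at 6 h and 12 at 12 h.

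Probe set 1618409_at had its highest intensities in control leaves and was lower at each later sampling. It measured 1936, 1885 and 2122 on the control arrays, then 574, 599.6 and 548 at 6 h, and 349, 334 and 342 at 12 h. Arrays of each group stayed within 1.13-fold of each other, and no groups overlapped. It was 3.45-fold lower than the control at 6 h (log2 −1.79 ± 0.09) and 5.79-fold lower at 12 h (log2 −2.53 ± 0.09). The further decrease between 6 h and 12 h was 1.68-fold (log2 −0.75 ± 0.09), less than 2-fold, and 70.5% of the 12 h log2 change was present at 6 h.

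Probe set 1619828_at was called lower than the control at 12 h but not at 6 h. Its control intensities were 166, 170 and 85.7, and those at 6 h were 131, 75.5 and 205. The 6 h and control arrays overlapped, and the log2 difference between them was −0.08 ± 0.36, with a sign that turned to 0.05 when arrays were centred on their medians, to 0.04 after a further quantile normalization and to values up to 0.29 when 1 array was left out. At 12 h the arrays read 49.7, 55.7 and 48.2, below every control and every 6 h array and below the array medians. The probe set was 2.62-fold lower at 12 h than in the control (log2 −1.39 ± 0.36) and 2.48-fold lower than at 6 h (log2 −1.31 ± 0.36). As the sign at 6 h was not settled, no share of the 12 h change is given for 6 h. The call for 12 h against 6 h was lost in the fits that left out UV-C 6 h replicate 1 or 3, or UV-C 12 h replicate 1 or 3.

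**Figure D1:**
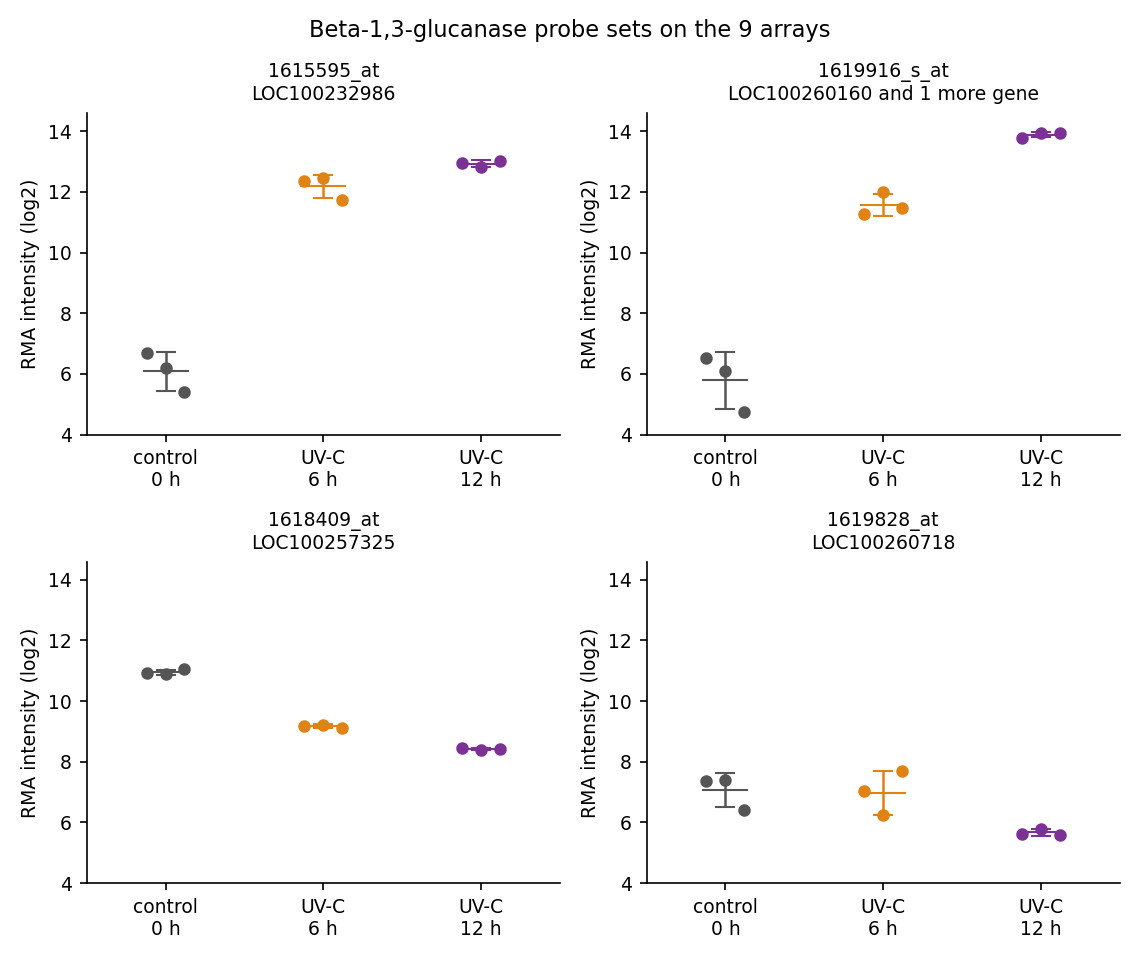
RMA intensity (log2) of the 4 beta-1,3-glucanase probe sets on each of the 9 arrays, with control 0 h, UV-C 6 h and UV-C 12 h leaves from left to right; points are arrays, and bars are the mean and SD of 3 arrays. The upper panels show the rises of 1615595_at and 1619916_s_at to intensities of 7158 and more and of 14064 and more at 12 h, and the lower panels the decline of 1618409_at at both times and of 1619828_at at 12 h.

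Called at an adjusted p under 0.05 with at least a 2-fold change in limma, 2 of the 4 members rose at 6 h and 1 fell, while 11.9% of the 16436 probe sets tested rose and 14.7% fell. At 12 h, 2 members rose and 2 fell, beside 14.7% and 17.5% of all probe sets. In the comparison of 12 h with 6 h, 1 member was higher (1619916_s_at) and 1 lower (1619828_at), beside 2.34% and 4.54%. Since the members were picked for having changed, nothing is read from their counts. Arrays of 1 group correlated at 0.988 to 0.996 over all probe sets. Beta-1,3-glucanase RNA was measured in whole leaves, in which a change in RNA per cell cannot be told apart from a change in the share of the cells that make it.

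Control replicate 3 stood apart from the other controls in 3 members. It was lower than the mean of control replicates 1 and 2 by a log2 value of −1.04 for 1615595_at, of −1.56 for 1619916_s_at and of −0.97 for 1619828_at, and it was 0.15 higher for 1618409_at. Over all probe sets the median difference was −0.01, and 1.17% lay at −1 or below. Without that array the log2 changes of 1615595_at were 5.74 at 6 h and 6.49 at 12 h, those of 1619916_s_at 5.27 and 7.57, and that of 1619828_at at 12 h −1.72. None of the members changed its call at 6 h or 12 h against the control when this or any other array was left out. The control intensities of the rising members lay at or below the array medians, and detection calls were not used here.

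In addition to the members, 10 probe sets were annotated as beta-1,3-glucanases or given that name by the study. Of these, 3 were titled beta-1,3-glucanases in the same table as the members, and as they were also selected on these arrays they carry no test. All 3 rose. Probe set 1620063_at (LOC100233076) had 99.2, 63.1 and 85.7 in the control, 3162, 3658 and 2886 at 6 h, and 6878, 5185 and 6450.3 at 12 h. It rose 39.6-fold (log2 5.31 ± 0.18) and 75.4-fold (log2 6.24 ± 0.18). G1, a basic extracellular beta-1,3-glucanase (1618425_at), rose 7.36-fold at 6 h and 6.66-fold at 12 h, and LOC100255644 (1610722_at) rose 8.03-fold and 10.4-fold. Control replicate 3 was also low for G1, by a log2 value of −1.52.

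The other 7 probe sets were found by the wording of their annotation. They are what remained of the family once the 7 in the study's table, which were chosen on their values and of which 5 rose at 12 h, had been set apart, so that the direction of the remainder is in part fixed by that choice and nothing is read from it. The 14 probe sets together held 6 risers and as many decreases at 6 h, then 5 risers beside 7 decreases at 12 h. Their median log2 change was −0.16 at 6 h and −0.78 at 12 h, values that lie between the risers and the decreases. The medians were −0.10 and 0.03 over annotated probe sets and −0.03 and 0.05 over all 16436 probe sets tested. Nothing is read from the median of the 14. Of the remaining 7, 1 rose and 5 fell at 6 h. At 12 h none of the 7 rose and 5 fell, and as all 7 log2 changes in the limma fit were below 0, none rose at an unadjusted p under 0.05 either. The 3 probe sets of LOC100254667 account for 3 of the 5 that fell, so that the 5 probe sets stand for 3 genes. The search could only find the 10471 probe sets that the deposited tables annotate, of which 17.8% were called up and 21.1% down at 6 h, and 21.6% up and 25.1% down at 12 h. Among the 5965 probe sets without annotation, 1.61% and 3.44% did so at 6 h.

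The largest decrease in the family was that of LOC100261876 (1622891_at), which is moderately similar to a putative Arabidopsis beta-1,3-glucanase. Its intensities were 417, 411 and 637 in the control, 18.7, 27.4 and 16.1 at 6 h, and 19.6 to 21.1 at 12 h. The UV-C arrays of both times overlapped with each other and lay far below the control. They also lay below the array medians. Background signal may limit the fold change at low intensities, so that a further decrease could go unseen, but this was not tested. It fell 23.6-fold at 6 h (log2 −4.56 ± 0.22, adjusted p = 1.19e-07, limma) and 23.6-fold at 12 h (log2 −4.56 ± 0.22, adjusted p = 7.42e-08, limma). Its log2 change ranked 19 from the lowest of 16436 at 6 h and 101 at 12 h.

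LOC100254667, weakly similar to an Arabidopsis beta-1,3-glucanase-like protein, was measured by 3 probe sets that all fell. Probe set 1610263_at had 900.5, 1058 and 1235 in the control, 164, 143 and 142 at 6 h, and 66.0, 79.2 and 57.8 at 12 h. For the 3 probe sets the log2 changes were −2.95, −2.82 and −2.53 at 6 h (adjusted p at most 2.03e-06, limma) and −3.21, −3.98 and −3.26 at 12 h (adjusted p at most 7.98e-07, limma), in the order 1606763_at, 1610263_at and 1610324_a_at. Their calls for a further decrease after 6 h differed. Only 1610263_at was called lower at 12 h than at 6 h (log2 −1.15 ± 0.15, adjusted p = 0.000587, limma), while 1610324_a_at passed the adjusted p with a log2 change of −0.72 and 1606763_at did not (log2 −0.25 ± 0.22, adjusted p = 0.435, limma). At 6 h these last probe sets already lay below the array medians, at 54.8 to 55.4 and 24.5 to 31.6. At 12 h 1610324_a_at read 29.4 to 37.5. Whether background signal limited a further decrease was not tested. A difference between the probe sets was not tested either, so the calls do not show that they disagree.

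LOC100257740 (1617368_at) fell 9.42-fold at 6 h (log2 −3.24 ± 0.22, adjusted p = 1.14e-06, limma) and 6.19-fold at 12 h (log2 −2.63 ± 0.22, adjusted p = 3.34e-06, limma). LOC100256478 (1614514_at) was the only one of the 7 to rise. It had 357, 435 and 554 in the control, 1026, 945 and 746 at 6 h, and 460.2, 374 and 417 at 12 h. Its rise at 6 h was 2.03-fold (log2 1.02 ± 0.18, adjusted p = 0.000751, limma), close to the 2-fold threshold, and the call was lost when control 0 h replicate 1, UV-C 6 h replicate 1 or UV-C 6 h replicate 2 was left out, with log2 changes of 0.87, 0.93 and 0.99. At 12 h its arrays overlapped with the control (log2 −0.09 ± 0.18, adjusted p = 0.707, limma), and they were 2.16-fold lower than at 6 h (log2 −1.11 ± 0.18, adjusted p = 0.00163, limma).

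LOC100257468 (1616183_at) is, in the annotation, weakly similar to the same Arabidopsis protein as the falling member 1618409_at, but it did not pass the test at either time. Its intensities were 59.9, 53.9 and 66.6 in the control, 52.3, 57.9 and 43.2 at 6 h, and 56.3, 60.9 and 43.8 at 12 h. Arrays of the groups overlapped in every comparison, with log2 changes of −0.24 ± 0.16 at 6 h (adjusted p = 0.243, limma) and −0.17 ± 0.16 at 12 h (adjusted p = 0.379, limma). The log2 changes of the member at the same times were −1.79 and −2.53. All values of 1616183_at were below the array medians, and a difference between these 2 probe sets was not tested.

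**Figure D2:**
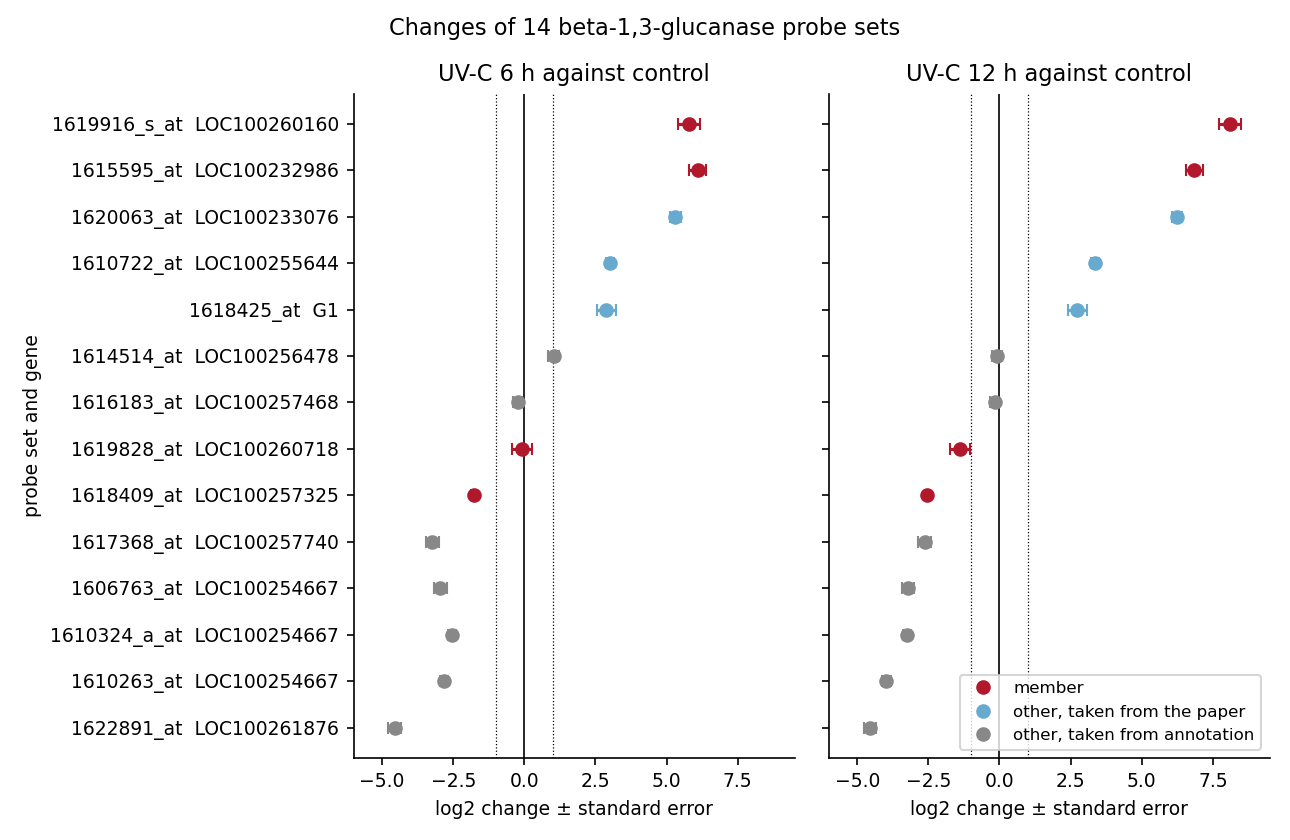
Log2 change against control (horizontal axis, ± standard error of the limma fit, 3 arrays per group) of the 14 beta-1,3-glucanase probe sets at 6 h (left) and 12 h (right), sorted by the change at 12 h; red points are the 4 members, blue points 3 other probe sets taken from the paper, grey points the remaining 7 found by annotation, and dotted lines mark 2-fold. At 12 h the changes ran from −4.56 for 1622891_at to 8.09 for 1619916_s_at, and none of the grey points was called up.

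The gene of the falling member 1619828_at lies beside genes that rose. These genes were all taken from the study's table, which was selected on these arrays, so nothing is read from the contrast in direction. In the RefSeq annotation of assembly ASM3070453v1, which is not the build the array was designed on and is used here only for the order of genes, 11 of the 13 genes of the 14 probe sets were matched. LOC100260718, the gene of 1619828_at, lies directly beside LOC100255644, whose probe set rose 10.4-fold at 12 h. After 2 further genes follow LOC100233076 and, directly beside it, G1, which rose 75.4-fold and 6.66-fold at 12 h. For the 2 genes between, a pseudogene and a protein-coding gene, no probe set was found by gene symbol, and their changes are not known. The 3 rising neighbours were well above the control at 6 h, with log2 changes of 3.01, 5.31 and 2.88 in that order, whereas 1619828_at stood at −0.08. The probe sets of LOC100260718 and G1 were both low in control replicate 3 (log2 −0.97 and −1.52), and those of LOC100255644 and LOC100233076 were not (log2 −0.07 and 0.12). The rising members 1615595_at and 1619916_s_at lie outside this group of genes as far as their genes were matched, and LOC100260160 and LOC100257325 were not matched.

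**Figure D3:**
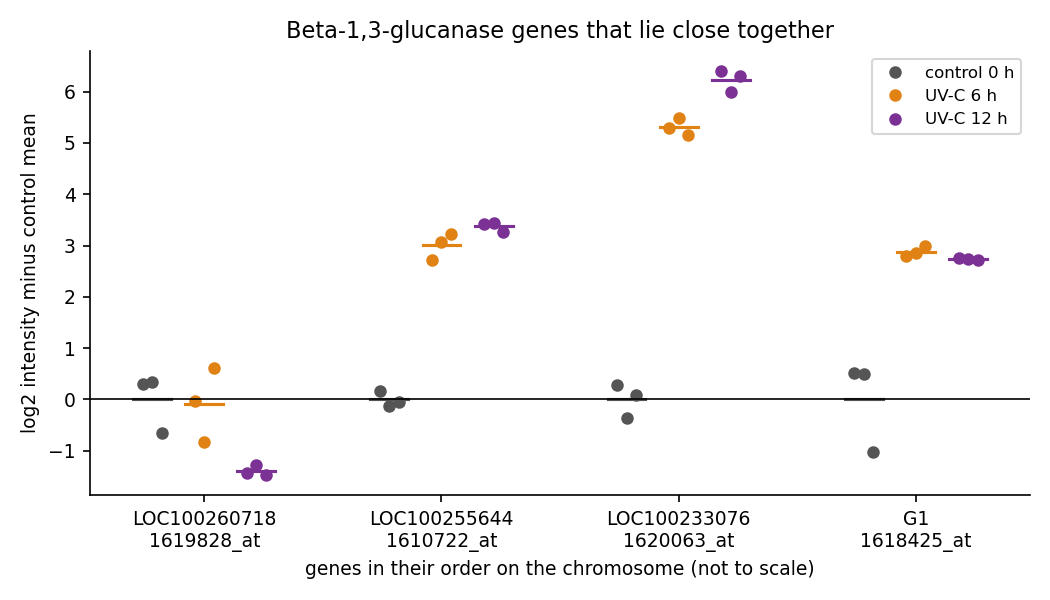
Log2 intensity minus the mean of the control arrays (vertical axis) for 4 beta-1,3-glucanase genes in their order on the chromosome, which is not to scale; each point is 1 array of control 0 h, UV-C 6 h or UV-C 12 h leaves, and each short line a group mean. The member LOC100260718 stood at −0.08 at 6 h and −1.39 at 12 h, while its neighbours LOC100255644, LOC100233076 and G1 stood at 3.37, 6.24 and 2.74 at 12 h. All 4 genes come from the study's table, which was selected on these arrays.

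Measured over the 6 UV-C arrays as the root mean square difference of the log2 changes from the control mean, the rising members were nearer to each other (0.95) than 1619916_s_at was to any other probe set of the family, and 1615595_at was nearest to 1620063_at (0.72). The falling members differed from each other by 1.52, and each rising member differed from each falling one by 7.30 to 9.23. As the members were chosen as rising and falling on these same values, the gap between the 2 kinds follows from that choice. Within the family, 1618409_at was nearest to 1610324_a_at of LOC100254667 (0.74), and 1619828_at to 1616183_at (1.03). Outside the family, the profiles most like that of 1615595_at among probe sets with a gene title were an osmotin-like protein (LOC100263272, 0.12), an alternative oxidase 1b (LOC100252878, 0.25) and a probe set the study titles a Myb4-like transcription factor (LOC100254518, 0.29). For 1619916_s_at they were a germin (LOC100259980, 0.43), a polyphenol oxidase (LOC100246764, 0.55) and a cupin (LOC100249816, 0.57), with names from the study, and the last 2 probe sets are assigned to more than 1 gene. Those nearest to 1618409_at were LOC100267331 (0.11), LOC100267802 (0.12) and LOC100263388 (0.12), and those nearest to 1619828_at were LOC100264397 (0.25), LOC100259317 (0.26) and LOC100253047 (0.29). As all these changes are taken from the same control arrays, the likeness is a description over 6 arrays of 2 time points.

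Chitinases, the enzymes that act beside beta-1,3-glucanases on fungal walls, mostly rose. At 6 h, 10 of 14 probe sets annotated as chitinases rose (71.4%) and 2 fell (14.3%), with a median log2 change of 2.13. The rises numbered 11 (78.6%) and the decreases 2 (14.3%) at 12 h, and the median was 3.19. Of all annotated probe sets, from which the lists were drawn, 17.8% rose and 21.1% fell at 6 h. At 12 h these shares were 21.6% and 25.1%. The class IV chitinase CHI4D (1613461_s_at) rose 242-fold at 6 h and 342-fold at 12 h (log2 8.42 ± 0.18, adjusted p = 1.08e-09, limma), and 1611710_at, which is assigned to both CHI4D and VVCHI4A, rose 170-fold and 264-fold. LOC100266937, moderately similar to a basic chitinase, fell 4.34-fold at 12 h, and LOC100244749 fell 2.79-fold. With the probe sets that may match several transcripts (suffixes s, x and a) left out, 5 chitinases rose at 6 h and 6 at 12 h.

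Thaumatins and osmotins, the PR-5 proteins, included both rising and falling probe sets. At 6 h, 6 of 15 probe sets rose (40.0%) and 2 fell (13.3%), against 17.8% and 21.1% of annotated probe sets. At 12 h, 5 of them rose (33.3%) and 2 fell (13.3%), against 21.6% and 25.1%. The osmotin-like LOC100263272 rose 108-fold at 12 h (log2 6.75 ± 0.21, adjusted p = 6.93e-09, limma) and a probe set shared by TL3 and 2 further genes 58.1-fold, and the thaumatin-like LOC100247111 fell 46.4-fold (log2 −5.54 ± 0.18, adjusted p = 9.04e-09, limma) and LOC100247919 2.45-fold. PR-1 or PR-10 proteins had 12 probe sets, of which 4 rose (33.3%) and 2 fell (16.7%) at 6 h. At 12 h the rises were 5 (41.7%) and the decreases 1 (8.33%). In 12 h against 6 h, 3.45% of annotated probe sets were higher. Of the 12, 2 passed as higher in the 12 h leaves than in the 6 h leaves, both designed on 1 mRNA for a putative PR-1 precursor: 1607390_x_at (LOC100242852) was 10.7-fold and 1612826_at 11.0-fold higher. The 3 probe sets with the gene symbol PR1, named after their values were seen, did not pass the test in any comparison, with log2 differences between 12 h and 6 h of 0.63 ± 0.49 (1608692_s_at), −0.15 ± 0.77 (1611490_at) and −0.12 ± 0.65 (1613816_x_at). PR10.7 fell 8.03-fold at 12 h, and 1620400_at, titled pathogenesis-related protein, fell 2.92-fold at 6 h (log2 −1.55 ± 0.54, adjusted p = 0.0363, limma) and stood at log2 −1.03 ± 0.54 at 12 h (adjusted p = 0.132, limma). These word searches took in a few genes that share only a word with their list.

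The only probe set annotated as a callose synthase, the enzyme that makes the substrate of beta-1,3-glucanases in leaves, fell. LOC100265625 (1616573_at, similar to callose synthase 3) was 3.06-fold lower at 6 h (log2 −1.61 ± 0.21, adjusted p = 0.000125, limma) and 4.52-fold lower at 12 h (log2 −2.18 ± 0.21, adjusted p = 1.15e-05, limma). Enzymes that act on beta-1,4-linked chains and on glucosides more often fell than rose, as annotated probe sets also did. Among their 12 probe sets, 2 rose and 6 fell at 6 h, against 17.8% and 21.1% of annotated probe sets. The decreases came to 7 at 12 h, beside 2 rises, against 25.1% and 21.6% of annotated probe sets. Whether the list differed from these shares was not tested. The mannosidase-like LOC100259912 fell 8.33-fold at 12 h and the cellulase LOC100232904 5.89-fold, while LOC100267763, similar to a xyloglucan endo-1,4-beta-D-glucanase, rose 6.33-fold and the beta-glucosidase-like LOC100241487 3.35-fold.

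**Figure D4:**
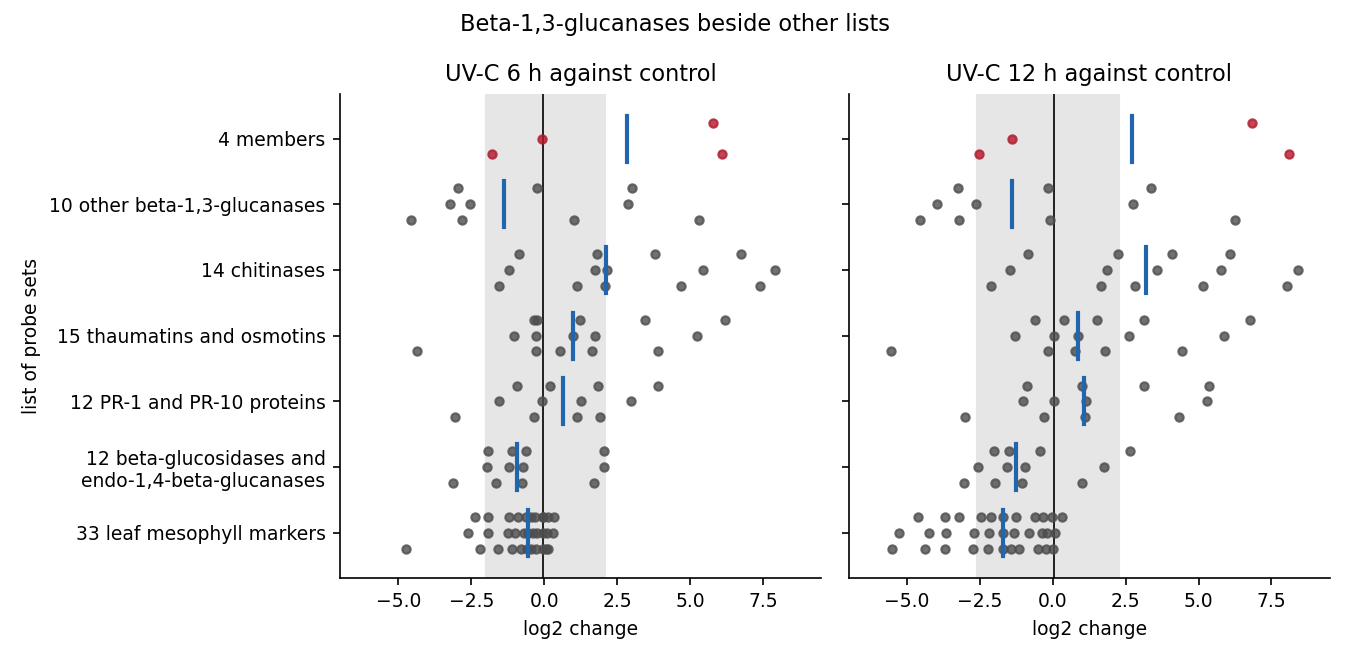
Log2 change against control (horizontal axis) of each probe set at 6 h (left) and 12 h (right) for the 4 members (red) and 6 lists of probe sets (grey); short blue lines are list medians, the black line the median and the grey band the 5th to 95th percentile of all 16436 probe sets. The members and the other beta-1,3-glucanases lay on both sides of the median at both times, and 11 of 14 chitinases had risen at 12 h.

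Genes of photosynthesis, which mark the leaf mesophyll, had lower intensities at the times when the members moved. The summed intensity of 33 such probe sets was 316216 to 331703 on the control arrays, 211816 to 230813 at 6 h and 121954 to 132230 at 12 h, without overlap between the groups. None was at 0, the lowest log2 intensity being 6.02. The median log2 change of the 33 was −0.56 at 6 h and −1.72 at 12 h. None was called up. Called down were 33.3% at 6 h and 66.7% at 12 h, against 21.1% and 25.1% of annotated probe sets. The 2 lowest at 12 h were 1616940_s_at of LHCA1, a light-harvesting protein, and 1611623_at of LOC100242600, similar to a photosystem I subunit. They were 39.0-fold and 45.9-fold below the control. Other probe sets of LHCA1 decreased less or not at all. The photosystem II probe sets 1622286_at and 1611270_s_at had log2 changes of 0.31 ± 0.15 and 0.06 ± 0.21 at 12 h. The part of this shift in the decrease of 1618409_at and 1619828_at was not tested.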

How the data were processed

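Intensities of 9 Affymetrix V. vinifera Genome Arrays were used. The authors adjusted the background, quantile-normalized and summarized the scans by RMA, and deposited 1 linear intensity per probe set and array (3.80 to 30874). Tables of each comparison, made by the authors with SAM, hold scores, q-values and fold changes, which were not used, and gene titles for 10471 probe sets, which were. The genome build is not given in the sources used here.

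The log2 of each intensity was taken, and the 3 groups were fitted together in limma 3.58.1 (R 4.3.3; lmFit, then eBayes; 6 residual and 3.42 prior degrees of freedom), for 16436 probe sets without the 165 control probe sets. P-values were adjusted by Benjamini and Hochberg over all of them, and a call needed an adjusted p under 0.05 and a 2-fold change. The fit was tested on simulated data. Errors after ± are standard errors in log2 units. The precision is limited by 3 arrays per group. The members, lists and tests were chosen with earlier results of these data known.

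Lists were drawn by word searches in titles and target descriptions, and no probe set was found for leaf vein markers or for callose-binding proteins of plasmodesmata. Named are the 4 members, the other beta-1,3-glucanases, the 2 highest and 2 lowest log2 changes at 12 h of each other list, and the 3 titled probe sets nearest to each member. Alternatives were no fold threshold, unadjusted p, 2 groups per fit, a robust fit with a trend, dropping the dimmest 25% of probe sets, centring on array medians or on 18 hybridization control probe sets, further quantile normalization, a replicate block, ratios of linear means, leaving out suffixed probe sets, and leaving out each array. Sequences of the members were not used here. Python 3.11.15 was used for the tables (pandas 2.3.3, numpy 2.4.6) and for the figures (matplotlib 3.10.9).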

Additional observations from a re-analysis of the deposited data

Results flagged for a closer look

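For 2 beta-1,3-glucanase probe sets outside the members, the effect at 12 h differed from that at 6 h by the test of 12 h against 6 h. Probe set 1610263_at of LOC100254667 was lower at 12 h than at 6 h by a log2 change of −1.15 (adjusted p = 0.000587, limma), with all 3 arrays at 12 h below all 3 at 6 h. The other probe sets of that gene changed by −0.25 (1606763_at) and −0.72 (1610324_a_at), and both lay below the array medians at 6 h. Probe set 1614514_at of LOC100256478 was lower at 12 h than at 6 h by −1.11 (adjusted p = 0.00163, limma), also with no overlap of arrays, having been higher than the control at 6 h. Since 7 probe sets were looked at in this way, p-values adjusted over all 16436 were used. No outlier test was made in the groups of 3 arrays.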

How the results depend on the processing

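The calls of the 4 members against the control were the same under all 18 alternative fits at both times, and 1619916_s_at was called higher at 12 h than at 6 h under all of them. The count of members lower at 12 h than at 6 h was 2 without a fold threshold and 0 to 1 when 1 array was left out. Centring on array medians moved the overall median of the log2 changes by 0.13 at 6 h and 0.14 at 12 h, and centring on hybridization controls by −0.16 and −0.14. Of the members' log2 changes, only those of 1618409_at moved by more than 1 SD, to −1.65 and −2.39 with array medians and to −1.95 and −2.68 with hybridization controls.

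Without a fold threshold, 3813 probe sets were up and 4873 down at 6 h, 4940 and 4733 at 12 h, and 2561 and 2158 in 12 h against 6 h. In the last comparison, 1 other beta-1,3-glucanase, 2 chitinases and 3 thaumatins or osmotins were then higher, 2 chitinases, 1 PR-1 or PR-10 probe set and 2 beta-glucosidases or endo-1,4-beta-glucanases were lower. Of that last list 1 was then higher, as it was under either centring and further quantile normalization. The PR-1 and PR-10 probe sets that fell at 12 h then numbered 2, as with 2 groups per fit and hybridization controls. With suffixed probe sets left out, the risers at 6 h and 12 h were 5 and 6 chitinases, 3 and 3 thaumatins or osmotins, and 1 and 2 PR-1 or PR-10 probe sets, and in 12 h against 6 h 0 chitinases and 1 PR-1 or PR-10 probe set were higher and 1 thaumatin was lower. At 6 h, 1 thaumatin fell with array medians or further quantile normalization, and 1 PR-1 or PR-10 probe set with array medians, with 2 groups per fit, or with the trend. With 1 array left out, the counts ran from 0 to 1 for other beta-1,3-glucanases and for beta-glucosidases higher at 12 h than at 6 h, from 1 to 2 for thaumatins and from 1 to 3 for PR-1 and PR-10 probe sets that fell at 6 h, and from 1 to 2 for the last list at 12 h.

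Signs turned only in values that had not passed. Of the members, this held for 1619828_at at 6 h, which ran from −0.43 to 0.29 with 1 array left out. Of the probe sets found by annotation, 1614514_at at 12 h reached 0.054 with array medians and −0.24 to 0.078 with 1 array left out. In 12 h against 6 h, 1616183_at then ran from −0.051 to 0.21 and 1622891_at from −0.16 to 0.22. After further quantile normalization 1622891_at stood at −0.0159. Deviations from the group means of samples with the same replicate number correlated at r from −0.16 to 0.14 over probe sets. The highest r with a sample of another number ran from −0.06 to 0.25. With 3 arrays per group, these values cannot settle whether the numbers pair the samples. With a replicate block, 1948 probe sets were up and 2410 down at 6 h, 2407 and 2878 at 12 h, and 379 and 739 in 12 h against 6 h. Under the block 1 PR-1 or PR-10 probe set fell at 6 h, and 7 thaumatins or osmotins rose at 12 h. That last count ran from 5 to 7 when 1 array was left out. The block changed no call of a beta-1,3-glucanase. The control intensities of 1615595_at and 1619916_s_at lay near or below the array medians. Background signal may limit the fold change where intensities are low, which was not tested.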
